A study of Drosophila melanogaster with 8 samples.

Results

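The expression of 10 genes of the Notch signalling pathway was examined in RNA-seq of whole *Drosophila* testes, as 10 of the 14256 genes in the count table. They comprise the receptor *N*, the ligands *Dl* and *Ser*, the ubiquitin ligases *neur* and *mib1* that act on the ligands, the protease *kuz* and the glycosyltransferase *fng* that act on the receptor, and the nuclear effectors *Su(H)*, *mam* and *H*. They were listed by name as pathway genes, with earlier results of these data known, and their symbols were matched to FlyBase identifiers, with *Dl* listed in the symbol table as Delta. All 10 were found in the count table and in the table of levels per length, and all 10 passed the filter on low counts. The libraries came from adult males at 5 days of age. *Tj-Gal4* is the control and carries the Gal4 driver without the shRNA, with 2 libraries, and *Tj-Gal4/+; UAS-E(Pc) shRNA/+*, written *Tj>E(Pc) shRNA*, carries the same driver with a transgene that expresses a short hairpin RNA against *E(Pc)* (Enhancer of Polycomb), also with 2 libraries. The tissue of 1 library was a single pair of testes. *Tj-Gal4* is active in the somatic gonadal cells, the cyst lineage and the hub, while the libraries hold RNA of germ cells and somatic cells together, so fewer cells of a type and less RNA per cell cannot be told apart. The 4 ChIP-seq samples of the series are not analysed here.

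Notch is a receptor in the plasma membrane that is activated by ligands on neighbouring cells. Ubiquitylation of a ligand by Neuralized or Mind bomb 1 leads to its endocytosis, which exposes the receptor to cleavage by the metalloprotease Kuzbanian and then by gamma-secretase. The released intracellular domain enters the nucleus and, with the DNA-binding protein Suppressor of Hairless and the coactivator Mastermind, turns on target genes such as those of the Enhancer of split complex, whereas Hairless holds Suppressor of Hairless in a repressing complex. In the fly testis, Notch signalling takes part in specifying the hub in the embryonic gonad, and Notch protein is used as a marker of early-stage germ cells.

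Replicates 1 and 2 totalled 3307767 and 4273908 counts for *Tj-Gal4* and 6251181 and 3691459 for *Tj>E(Pc) shRNA*, a 1.89-fold range. The targeted gene *E(Pc)* (chromosome 2R) had 854 and 1187 counts over the *Tj-Gal4* pair and 2685 and 1235 counts in the libraries labelled as *Tj>E(Pc) shRNA*. The change, 0.44 on the log2 scale with a standard error of 0.18, was not called (edgeR quasi-likelihood, adjusted p = 0.083). The libraries also hold RNA of germ cells, in which the driver is not active, and every direction given here rests on the library labels. The highest density of reads in any gene was between 0.924 and 0.965 counts per base of exon in the 4 libraries, so no gene exceeded 1 count per base in any of them. The Notch pathway genes lay far below that density, between 0.0183 and 0.281 counts per base.

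*H* and *mib1* were higher in the libraries labelled as *Tj>E(Pc) shRNA* than in *Tj-Gal4*, and both ligand genes, *Ser* and *Dl*, were lower. *H*, the antagonist of the nuclear complex, was 2.44-fold higher, and *mib1*, a ubiquitin ligase for the ligands, was 1.87-fold higher. *Ser* was 2.28-fold lower and *Dl* 1.47-fold lower, and the call of *Dl* was lost in 3 of the 14 other fits. The receptor gene *N* and the genes *neur*, *kuz*, *fng*, *Su(H)* and *mam* were not called in either direction. The genotypes were set against each other by the quasi-likelihood test of edgeR on counts scaled by TMM, a method that sets libraries to a common level over most genes, and a gene is called where its Benjamini-Hochberg adjusted p over the 11163 genes tested is under 0.05. Of the 10 genes, 2 were called higher, beside 22.5% of all genes tested, and 2 were called lower, beside 11.4% of all genes tested. With the trend of counts on library depth removed, these calls were the same in number, but calls over all genes went from 2517 higher and 1272 lower to 2810 higher and 2415 lower. The median log2 fold change of the 10 genes was 0.24, against 0.0017 over all genes tested, whose quartiles were -0.39 and 0.51. With the trend of counts on gene length removed, the uncalled genes of the 10 ran from -0.098 (*N*) to 0.13 (*neur*). *H* (1.02), *mib1* (0.69), *Dl* (-0.81) and *Ser* (-1.47) were still called in that fit, whose median over all genes was -0.062. In scaled CPM (counts relative to the adjusted library size), the control pair was exceeded by both of the other libraries in 5 of the 10 genes and lay above both in 2, beside 38.9% and 33.8% of all genes tested.

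**Figure D1:**
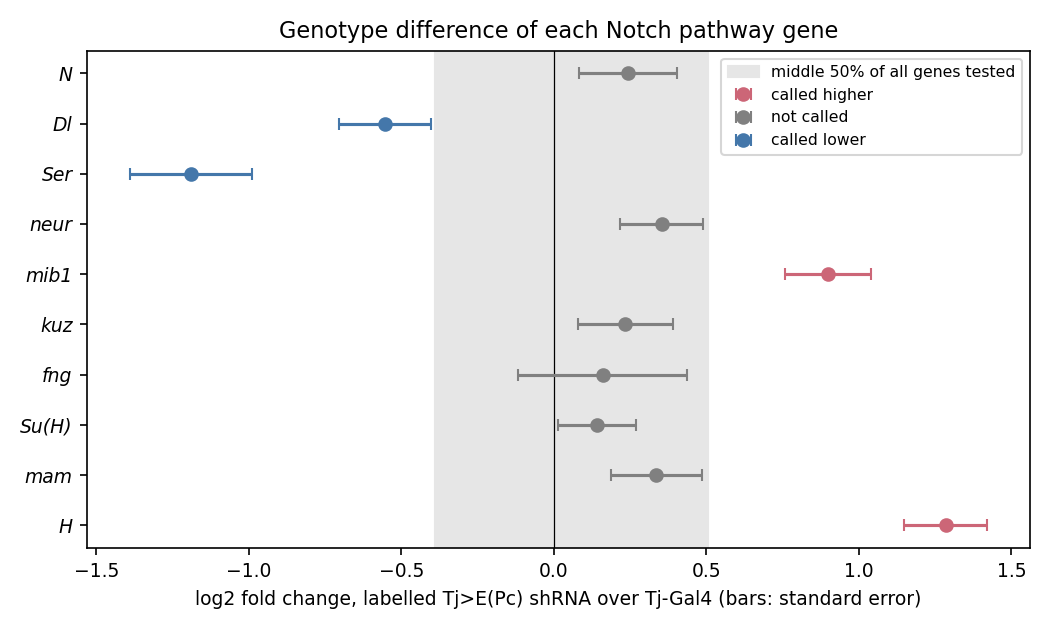
Log2 fold change of the libraries labelled Tj>E(Pc) shRNA over Tj-Gal4 for each of the 10 genes (points) with its standard error (bars), from edgeR's quasi-likelihood fit over 2 libraries of each genotype; the grey band runs from the lower to the upper quartile of all genes tested. Ser (-1.19) and Dl (-0.55) lie to the left of the band, mib1 (0.90) and H (1.28) to its right, and the other 6 genes lie within it.

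The order of the 10 genes by level changed between the genotypes. Levels per length are given as cRPKM, the authors' corrected RPKM, in which reads are scaled by exon length and library size, so that genes of different length can be compared. In *Tj-Gal4* the means ran from 23.9 cRPKM for *Ser* to 5.40 cRPKM for *fng*, a 4.43-fold range. *Ser* and *Su(H)* (23.2) led without a gap between their replicate values, *mib1* (21.0) followed below both, then *neur* (15.2) and *kuz* (14.6), whose values overlapped. *H* (10.9), *Dl* (9.82) and *mam* (9.44) came next, each overlapping its neighbour in the order, and *N* (6.62) stood below them and above *fng*. Against all genes with a cRPKM value these are middle to low levels, with *Ser* at percentile 53.9 and *fng* at percentile 22.7 of the *Tj-Gal4* means.

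In the libraries labelled as *Tj>E(Pc) shRNA* the order was led by *mib1*, with a mean of 39.2 cRPKM, above *H* (26.5) and *Su(H)* (25.5), whose values overlapped. In a later annotation *mib1* overlaps another gene, *mRpS31*, so its place in both orders may rest on shared reads. Less all counts of *mRpS31*, these 2 libraries kept 713 and 374 of the 1133 and 608 counts of *mib1*. *neur* (19.3) and *kuz* (17.1) kept places 4 and 5. Below them, *mam* (11.9), *Ser* (10.4), *N* (7.79), *Dl* (6.71) and *fng* (5.98) formed a run in which each gene overlapped its neighbour. *Ser* thus stood in place 1 in the controls and in place 7 in these libraries, and *H* in place 6 and in place 2.

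**Figure D2:**
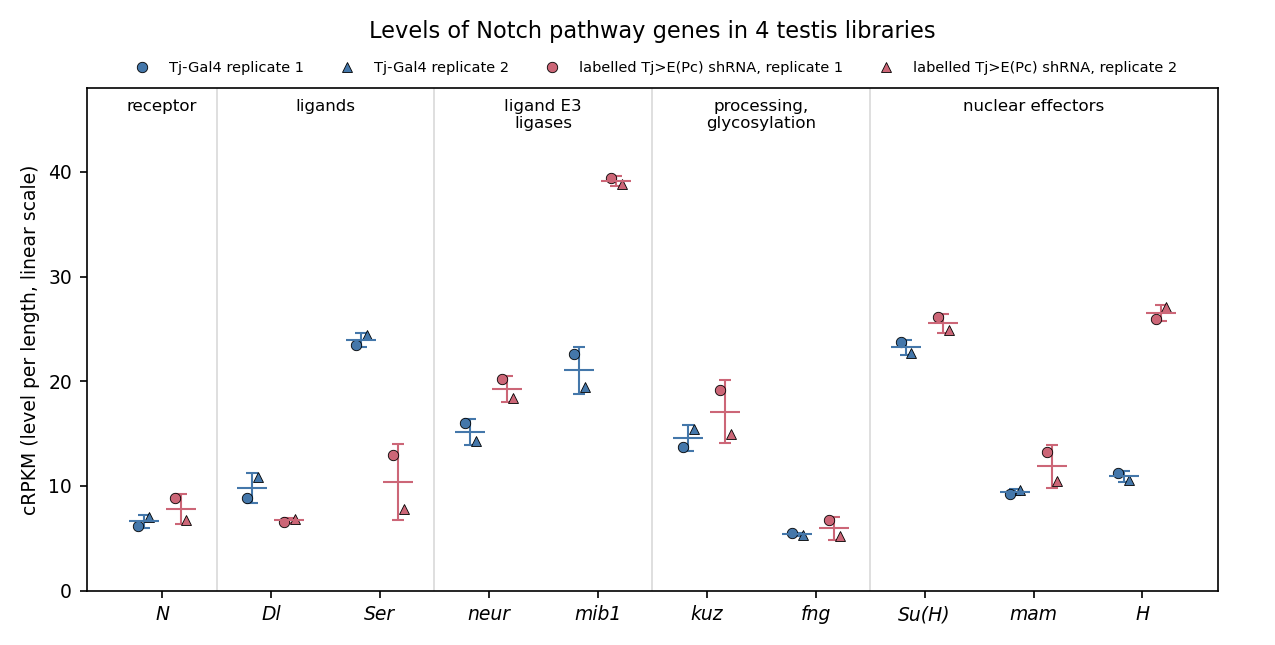
Level of each gene as cRPKM on a linear axis, with a point for each library (circles, replicate 1; triangles, replicate 2; blue, Tj-Gal4; red, libraries labelled Tj>E(Pc) shRNA), the mean as a horizontal line and the SD of 2 libraries as a bar. The genotypes separate widely for Ser, mib1 and H, narrowly for Dl, neur, Su(H) and mam, and overlap for N, kuz and fng.

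Among the ligand genes, *Ser* (FBgn0004197, chromosome 3R), which encodes Serrate, a transmembrane ligand of Notch, had 434 and 624 counts over the *Tj-Gal4* pair and 506 and 169 counts in the libraries labelled as *Tj>E(Pc) shRNA*. Its level was 23.4 and 24.4 cRPKM in the former and 12.9 and 7.79 cRPKM in the latter. Both controls were high and close together, at 23.9 ± 0.696 cRPKM (SD, n = 2), and both libraries of the other genotype were low but apart from each other, at 10.4 ± 3.64 cRPKM (SD, n = 2). Between genotypes this was a log2 difference of -1.19 with a standard error of 0.20 and, in edgeR's quasi-likelihood test, an adjusted p of 0.0019. By log2 fold change *Ser* ranked 272nd from the lowest of the genes tested. Without *Tj>E(Pc) shRNA* replicate 1 it was -1.61, and without replicate 2 it was -0.90, called in both cases.

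*Dl* (FBgn0000463, chromosome 3R), which encodes Delta, the other transmembrane ligand, had 155 and 262 counts over the *Tj-Gal4* pair and 247 and 141 counts in the libraries labelled as *Tj>E(Pc) shRNA*. As cRPKM, these were 8.82 and 10.8 against 6.55 and 6.88, with means of 9.82 ± 1.42 and 6.71 ± 0.231 (SD, n = 2). The groups did not overlap, but the gap from the lower control to the nearest library of the other genotype was about as wide as the gap between the controls. Between genotypes this was a log2 difference of -0.55 with a standard error of 0.15 and, in edgeR's quasi-likelihood test, an adjusted p of 0.0195. This call was lost without *Tj-Gal4* replicate 2 (-0.39, adjusted p = 0.217 from the same edgeR test) with library size alone as the scaling (-0.48, adjusted p = 0.0604, edgeR) and with DESeq2 (-0.60, adjusted p = 0.0785). With limma on log2(cRPKM + 1) the difference was -0.48 (adjusted p = 0.144). Over the 10 other fits of all 4 libraries the adjusted p ran from 0.000533 to 0.0785.

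Of the ubiquitin ligase genes, *mib1* (FBgn0263601, chromosome 3L) had 304 and 361 counts over the *Tj-Gal4* pair and 1133 and 608 counts in the libraries labelled as *Tj>E(Pc) shRNA*. Its level was 22.6 and 19.5 cRPKM in the former and 39.5 and 38.8 cRPKM in the latter. The libraries labelled as knockdown were close together, at 39.2 ± 0.450 cRPKM (SD, n = 2), and far above the controls, at 21.0 ± 2.26 cRPKM (SD, n = 2). Between genotypes this was a log2 difference of 0.90 with a standard error of 0.14 and, in edgeR's quasi-likelihood test, an adjusted p of 0.00136. In a later annotation (RefSeq, Release 6) the span of *mib1* overlaps that of *mRpS31*, a mitochondrial ribosomal protein gene, which was also called higher (log2 fold change 0.97, adjusted p = 0.00159 from the same edgeR test). When all counts of *mRpS31* were subtracted from *mib1*, an alternative chosen after seeing the data, 217 and 204 counts were left in *Tj-Gal4* and 713 and 374 in the other libraries. The log2 fold change was then 0.86 (standard error 0.17, edgeR quasi-likelihood, adjusted p = 0.005).

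*neur* (FBgn0002932, chromosome 3R), the other ligase gene, had 230 and 284 counts over the *Tj-Gal4* pair and 618 and 308 counts in the libraries labelled as *Tj>E(Pc) shRNA*. Its level was 16.0 and 14.3 cRPKM against 20.2 and 18.4 cRPKM. The groups did not overlap, and the log2 fold change, 0.35 with a standard error of 0.14, was not called (edgeR quasi-likelihood, adjusted p = 0.0668). It was called with library size alone as the scaling (0.43, adjusted p = 0.0474 from the same edgeR test). It was also called with a crossed replicate block, which pairs unlike replicate numbers across genotypes (0.36, adjusted p = 0.0259, same edgeR test). Without *Tj>E(Pc) shRNA* replicate 2 it was 0.42. Its span overlaps an antisense RNA gene and *hyx* in Release 6, and the counting is not stated to use strand, so its counts are uncertain. *hyx* was called higher (log2 fold change 0.75, edgeR quasi-likelihood, adjusted p = 0.00467), and its part in the value of *neur* was not tested. The spans of *kuz*, *fng* and *mam* each overlap 1 protein-coding gene that was not called, and those of *kuz* and *mam* also overlap non-coding genes. *CG9254*, over *kuz*, held 1467 and 1544 counts against 1550 and 1414, and *CG10589*, over *fng*, held 1006 and 1172 against 1223 and 912. Both held more counts than the member in every library, and the part of shared reads was not tested. The spans of *N*, *Dl*, *Ser*, *Su(H)* and *H* overlap no other gene.

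The receptor gene *N* (FBgn0004647, chromosome X), with the longest merged exons of the group at 10189 bp, had 210 and 330 counts over the *Tj-Gal4* pair and 638 and 268 counts in the libraries labelled as *Tj>E(Pc) shRNA*. Its level was 6.18 and 7.05 cRPKM in the former and 8.83 and 6.75 cRPKM in the latter. Replicate 1 of the latter exceeded the control pair and replicate 2 lay within its range. The log2 fold change, 0.24 with a standard error of 0.16, was not called (edgeR quasi-likelihood, adjusted p = 0.241). Its size depended on *Tj>E(Pc) shRNA* replicate 1, since it was 0.02 without that library and 0.41 without replicate 2, where it was called. With the trend of counts on gene length removed it was -0.10, and with the trend on library depth removed it was 0.09.

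Of the genes that act on the receptor, *kuz* (FBgn0259984, chromosome 2L), the ADAM metalloprotease that sheds the Notch extracellular domain, was at 13.7 and 15.5 cRPKM in *Tj-Gal4* and at 19.2 and 15.0 cRPKM in the libraries labelled as *Tj>E(Pc) shRNA*. Its counts were 259 and 402 against 772 and 330. The groups overlapped, and the log2 fold change, 0.23 with a standard error of 0.16, was not called (edgeR quasi-likelihood, adjusted p = 0.246). With the depth trend removed it was 0.14. As for *N*, it fell near 0 without *Tj>E(Pc) shRNA* replicate 1 (0.03), and it was called without replicate 2 (0.39).

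*fng* (FBgn0011591, chromosome 3L), whose product extends the O-linked fucose of Notch and thereby changes its response to the ligands, was the gene with the fewest reads. It had 36 and 48 counts over the *Tj-Gal4* pair and 93 and 40 counts in the libraries labelled as *Tj>E(Pc) shRNA*. The exact Poisson 95% interval of the lowest count ran from 25.2 to 49.8 and covers counting error only. Its level was 5.50 and 5.30 cRPKM against 6.76 and 5.20 cRPKM, with overlapping groups and a log2 difference of 0.16 (SE 0.28, edgeR quasi-likelihood, adjusted p = 0.668). Its standard error was the largest of the 10 genes.

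In the nucleus, *Su(H)* (FBgn0004837, chromosome 2L), the DNA-binding protein of the pathway, had 233 and 308 counts over the *Tj-Gal4* pair and 549 and 285 counts in the libraries labelled as *Tj>E(Pc) shRNA*. Its level was 23.7 and 22.7 cRPKM in the former and 26.2 and 24.9 cRPKM in the latter. The groups did not overlap, though they lay close together, and the log2 fold change, 0.14 with a standard error of 0.13, was not called (edgeR quasi-likelihood, adjusted p = 0.398).

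*mam* (FBgn0002643, chromosome 2R), the coactivator that joins *Su(H)* and the Notch intracellular domain, was at 9.26 and 9.63 cRPKM in *Tj-Gal4* and at 13.3 and 10.4 cRPKM in the libraries labelled as *Tj>E(Pc) shRNA*. Its counts were 265 and 380 against 810 and 349. In level, replicate 1 of the latter stood apart, and replicate 2 lay just above the controls. The log2 fold change, 0.34 with a standard error of 0.15, was not called (edgeR quasi-likelihood, adjusted p = 0.104). With the depth trend removed it was 0.21. It was called with the crossed replicate block (0.33, adjusted p = 0.0346, same edgeR test). It was 0.14 without replicate 1 and 0.49 without replicate 2, where it was called, and 0.01 with the gene length trend removed.

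*H* (FBgn0001169, chromosome 3R), which encodes Hairless, the adaptor that binds *Su(H)* and recruits the corepressors Groucho and CtBP, had 225 and 292 counts over the *Tj-Gal4* pair and 1112 and 632 counts in the libraries labelled as *Tj>E(Pc) shRNA*. Its level was 11.2 and 10.6 cRPKM in the former and 26.0 and 27.1 cRPKM in the latter. Both genotypes had replicates close together, at 10.9 ± 0.482 and 26.5 ± 0.790 cRPKM (SD, n = 2), with a wide gap between genotypes. Between genotypes this was a log2 difference of 1.28 with a standard error of 0.14 and, in edgeR's quasi-likelihood test, an adjusted p of 0.00023. By log2 fold change *H* ranked 504th from the highest of the genes tested. It was called in all 15 fits, between 1.02 and 1.36, and with each library left out it ran from 1.24 to 1.31.

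For a single gene with 2 libraries against 2, the exact permutation test, two-sided and run over log2(cRPKM + 1), cannot give a p below 0.333. This exact test gave p = 0.333 for the 7 genes whose groups did not overlap, 0.667 for *N* and *kuz*, and 1 for *fng*. Groups without overlap were common over all genes tested, with 38.9% separating upward and 33.8% downward in scaled CPM.

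Ratios between genes within a library, of pairs chosen after their values were seen, carry no factor that is common to a library. The ratio of *H* to *Su(H)* was 0.474 and 0.465 in *Tj-Gal4* and 0.992 and 1.09 in the libraries labelled as *Tj>E(Pc) shRNA*. Hairless transcripts were thus at less than the level of *Su(H)* transcripts per length in the controls and at about the same level in the other genotype. The ratio of *mib1* to *neur*, which may each share reads with an overlapping gene, was 1.41 and 1.36 in *Tj-Gal4* and 1.96 and 2.11 in the other libraries. The ratio of *Dl* to *Ser* was 0.376 and 0.443 in the controls against 0.506 and 0.883, so *Ser* led *Dl* in every library, by the least in *Tj>E(Pc) shRNA* replicate 2. These 3 ratios did not overlap between genotypes, whereas that of *mam* to *Su(H)* did. The smallest p an exact permutation test allows for such ratios is 0.333.

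**Figure D3:**
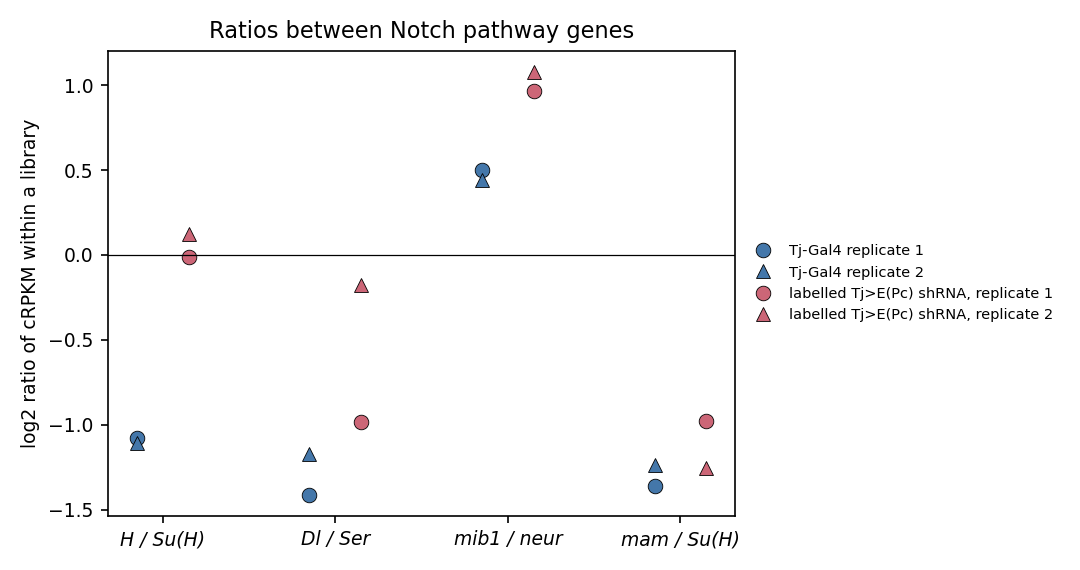
Log2 ratio of cRPKM between pairs of genes within each library, a point per library (blue, Tj-Gal4; red, libraries labelled Tj>E(Pc) shRNA; circles, replicate 1; triangles, replicate 2), with 0 for equal levels per length. The H to Su(H) ratio rises from near -1 to near 0 and the mib1 to neur ratio to about 1, while the mam to Su(H) values of the genotypes overlap.

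Other genes of the pathway were taken from a list of 42, of which 38 matched the count table and 24 passed the filter on low counts. The test called 10 of the 24 higher in the libraries labelled as *Tj>E(Pc) shRNA*, beside 22.5% of all genes tested. It called 0 lower, beside 11.4% of all genes tested, and 0 were lower at an unadjusted p under 0.05. DESeq2 called 0 lower, beside 724 of all 11163 genes. The median log2 fold change of the 24 was 0.18, against 0.0017 over all genes. DESeq2 called 5 of them higher, *dx*, *Su(dx)*, *CtBP*, *Bx42* and *nej*, beside 1453 of all 11163 genes. With the gene length trend removed, the edgeR test called 7 higher, beside 2347 of all 11163 genes, and the calls of *kul*, *Nak* and *nej* were lost. Without *Tj-Gal4* replicate 1 the edgeR test called 4 higher, and without *Tj-Gal4* replicate 2 it called 5. With the depth trend removed, 11 were called higher, beside 2810 of all 11163 genes. In that fit 3 of the 24, *lqf*, *shi* and *numb*, were called lower, beside 2415 of all 11163 genes.

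Of the 4 nuclear corepressor and cofactor genes tested, 3 were called higher, beside 22.5% of all genes tested. *CtBP*, a corepressor that Hairless recruits, had 173 and 239 counts over the *Tj-Gal4* pair and 851 and 549 counts in the libraries labelled as *Tj>E(Pc) shRNA*, a log2 difference of 1.32 (standard error, SE, 0.14, edgeR quasi-likelihood, adjusted p = 0.000239). *Bx42*, the fly SKIP gene, which encodes a splicing factor and cofactor of Notch transcription, had 1.06 (SE 0.13 and adjusted p = 0.000468, same edgeR test). *nej*, which encodes the acetyltransferase CBP, had 0.95 (SE 0.20 and adjusted p = 0.00524, same edgeR test). *gro*, the other corepressor gene, had 0.38 and was not called (adjusted p = 0.0651 from the same edgeR test).

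Of 8 genes tested for endocytic regulation of ligand and receptor, 3 were called higher, beside 22.5% of all genes tested. The median log2 fold change of the 8 was -0.20. *Su(dx)*, which encodes a Nedd4-family ubiquitin ligase that lowers Notch signalling, had 166 and 242 counts over the *Tj-Gal4* pair and 834 and 381 counts in the other libraries, a log2 fold change of 1.08 (edgeR quasi-likelihood, adjusted p = 0.000643). *dx*, the gene of Deltex, a ubiquitin ligase that binds the Notch intracellular domain, had 0.97 (adjusted p = 0.00636 from the same edgeR test), and the kinase gene *Nak* had 0.59. The related ligase gene *Nedd4* had -0.14 and was not called, nor were *lqf* (-0.33), *mib2* (-0.32), *numb* (-0.28) and *shi* (-0.27). *CtBP*, *Bx42*, *Su(dx)* and *dx* were the 4 genes of the list called higher in all 15 fits.

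Among 8 genes for folding, glycosylation and cleavage of the receptor, 4 were called higher, beside 22.5% of all genes tested. *O-fut1*, whose product adds the fucose that Fringe extends, had a log2 fold change of 0.94 (28 and 40 counts against 120 and 62). *Tsp3A* (1.56, from 8 and 13 counts to 62 and 26 counts) and *Tsp26A* (0.71) encode tetraspanins that aid the trafficking of Kuzbanian, and *kul* (0.67) encodes a relative of Kuzbanian. *Fur1*, *Fur2*, *Tsp86D* and *rumi* ranged from 0.07 to 0.22 and were not called. The 3 gamma-secretase genes tested, *nct*, *aph-1* and *pen-2*, ranged from -0.07 to 0.13, and none was called.

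**Figure D4:**
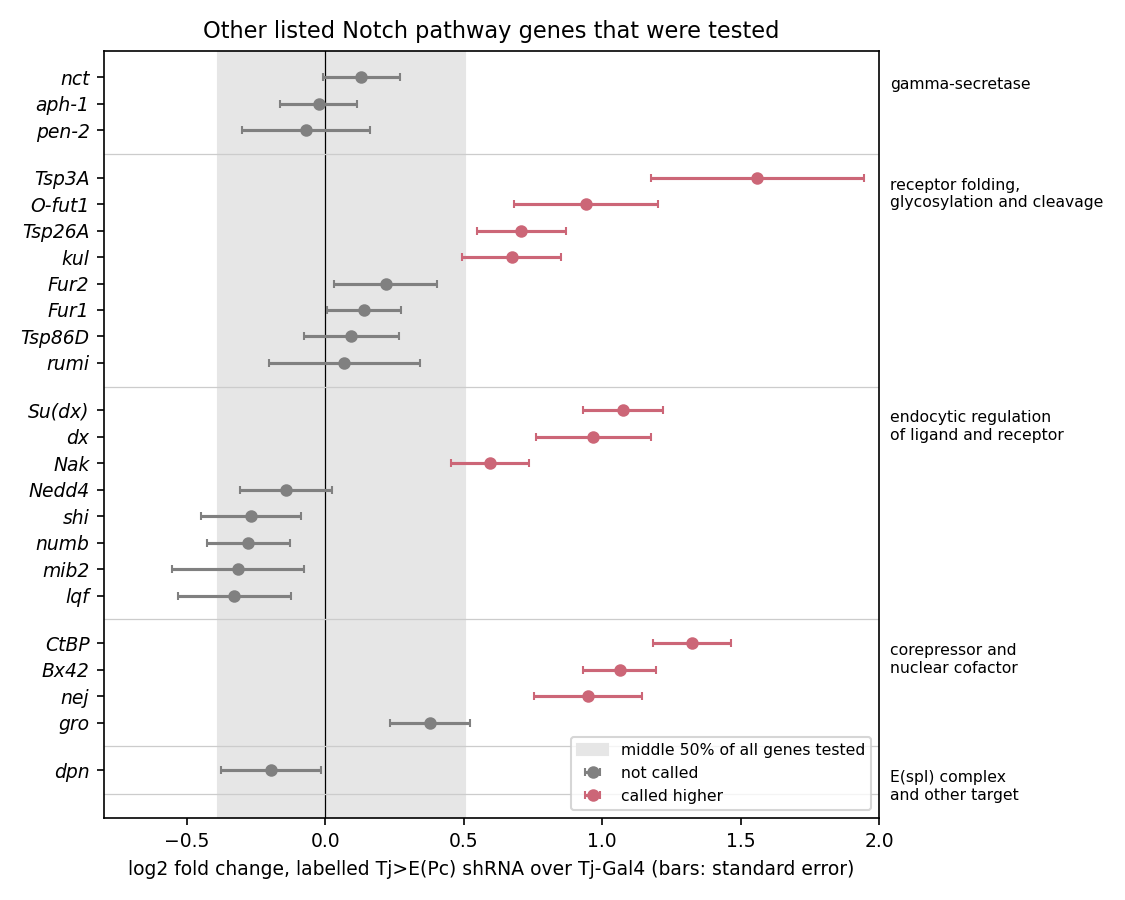
Log2 fold change of the libraries labelled Tj>E(Pc) shRNA over Tj-Gal4 with its standard error for the 24 other pathway genes tested, grouped by role; red marks genes called higher, grey genes not called, and the band the interquartile range of all genes tested. The 10 genes called higher lie to the right of the band, and the gamma-secretase genes lie near 0.

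Most listed readouts of the pathway were nearly undetected. Of the 11 genes of the Enhancer of split complex in the list, which encode repressors and Bearded-family proteins induced by Notch, 10 matched, and none passed the filter. *E(spl)malpha-BFM*, *E(spl)m2-BFM*, *E(spl)m6-BFM*, *E(spl)m7-HLH*, *E(spl)m8-HLH*, *E(spl)mdelta-HLH* and *E(spl)mgamma-HLH* held 3 counts or fewer in each of the 4 libraries, as did the related genes *Tom* and *Ocho*. The highest of the complex was *E(spl)m3-HLH*, with 3 and 4 counts in the *Tj-Gal4* pair and 8 and 3 counts in the libraries labelled as *Tj>E(Pc) shRNA*. Summed over the 10 genes, there were 8 and 9 counts in the *Tj-Gal4* pair and 24 and 15 in the other libraries, with exact Poisson 95% intervals of 3.45 to 15.8 for the lowest sum and 15.4 to 35.7 for the highest. The scaled sums were 2.57 and 2.09 CPM against 3.63 and 4.11 CPM. The intervals cover counting error only, and this sum, made after the values were seen, was not tested. *Hey* held 5 and 14 counts against 12 and 6. *dpn*, a gene of a related transcription factor, was the only target of the list with enough reads for the test (97 and 160 counts against 211 and 101), and its log2 fold change of -0.20 was not called (edgeR quasi-likelihood, adjusted p = 0.401).

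Markers of cell types were read beside these values. Over all genes tested, 22.5% were called higher and 11.4% lower. Of 9 early germline markers, 6 were called higher, with log2 fold changes of 3.21 for *ovo*, 2.05 for *zpg*, 1.62 for *bam*, 1.51 for *aub*, 1.47 for *nos* and 0.59 for *piwi*. *tut* (0.41), *bgcn* (0.06) and *stet* (-0.22) were not called. The 9 markers summed to 438 and 423 CPM in *Tj-Gal4* and to 698 and 700 CPM in the libraries labelled as *Tj>E(Pc) shRNA*. Of this, *bgcn* held 258 and 227 CPM against 274 and 231 CPM. The part of these markers in the rise of *H*, *mib1* and the nuclear cofactors was not tested. Of 5 hub genes, 3 were called lower, *hh* (-1.26), *CadN* (-0.57) and *upd1* (-0.45), with sums of 372 and 426 CPM against 363 and 312 CPM. *shg* (0.34) and *Fas3* (-0.07) were not called. Of 8 cyst lineage genes, *so* (-1.38) and *Wnt2* (-0.56) were called lower and *zfh1* (0.65) higher, with sums of 620 and 638 CPM against 772 and 677 CPM. Much of this sum came from *chinmo* (332 and 309 CPM against 457 and 439 CPM), which was not called. Of the 4 nervous system genes, 3 were tested, and *nSyb* (-1.90) and *brp* (-1.03) were called lower but *elav* (0.54) was not called. The 4 genes summed to 114 and 137 CPM against 73.1 and 48.8 CPM. The part of these lists in the fall of *Ser* and *Dl* was not tested.

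The libraries carried the transcripts of a testis. All 11 spermatocyte and 10 spermatid markers were detected, at 1037 to 1148 CPM and 949 to 1773 CPM in sum, and of these *comr*, *tomb*, *can*, *achi* and *aly* were called higher and *ProtA*, *fzo* and *ProtB* lower. Counts of *ocn*, at 0.766 to 0.837 per base, hardly followed library depth (501 and 524 against 525 and 480). Those of *ProtB* followed it little (314 and 353 against 354 and 272), and those of *fzo* more (1365 and 1642 against 1861 and 1011). The spermatid sum was lowest, at 949 CPM, in the deepest library, *Tj>E(Pc) shRNA* replicate 1. The part of depth in the spermatid values was not tested. Muscle sheath genes summed to 1077 to 1380 CPM, with *Mef2* called higher and *Act57B* lower. Markers of other tissues were present in part. The 6 accessory gland and duct genes summed to 60.0 and 77.7 CPM in *Tj-Gal4* and 85.8 and 69.3 CPM in the other libraries, most of it from *Acp36DE* (139 and 215 counts against 381 and 189), with *Ebp* called lower and *Est-6* higher. The 4 fat body genes summed to 120 and 141 CPM against 156 and 115 CPM, most of it from *apolpp* (339 and 576 counts against 901 and 371), with *Lsp2* called higher. *SP*, *EbpII*, *Yp1* and *Yp2* held 3 counts or fewer in every library.

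Over the 15 fits, which differ in scaling, filter, tool, block, trend correction or the library left out, *Ser* stayed between -1.61 and -0.90, *mib1* between 0.69 and 0.99 and *H* between 1.02 and 1.36, each called in every fit. *fng* and *Su(H)* were called in none.

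**Figure D5:**
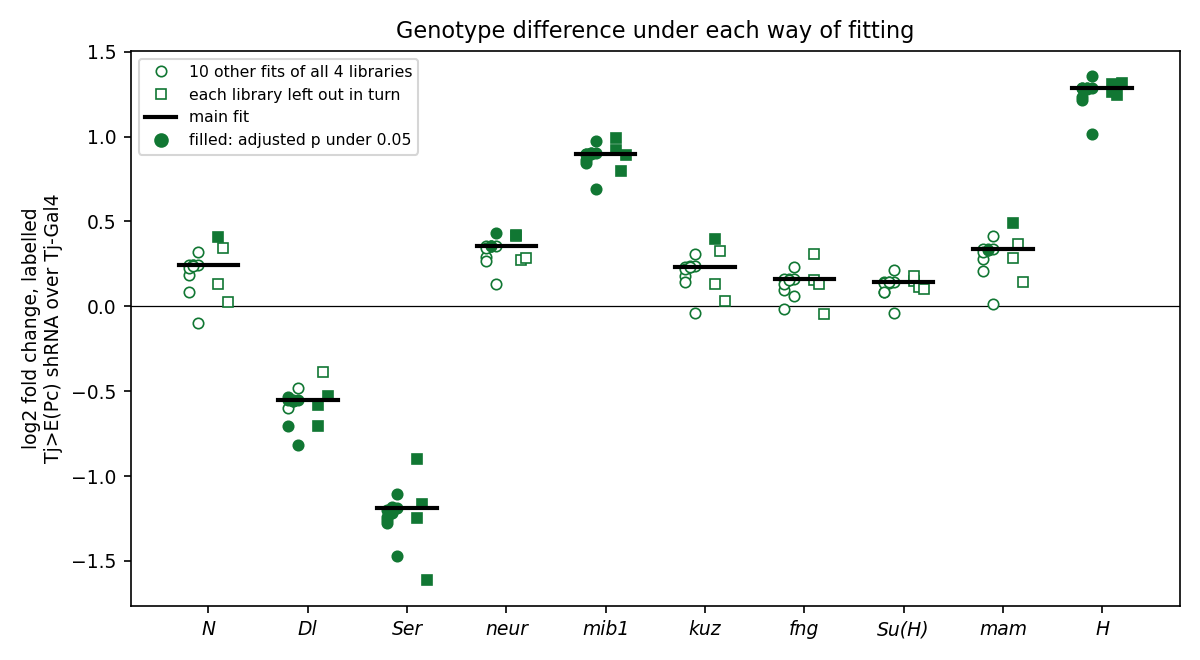
Log2 fold change of each of the 10 genes as reported (black line), the 10 other fits of all 4 libraries (circles) and the fits with each library left out in turn (squares); filled symbols have an adjusted p under 0.05. Ser, mib1 and H are filled throughout, Dl is lower throughout and open in 3 fits, and N, kuz, fng and Su(H) have values on both sides of 0.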

How the data were processed

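RNA-seq of whole testes was analysed in 4 libraries. The authors aligned 50-nt single-end reads to dm3 with Bowtie 0.12.7, kept reads with 1 alignment site and deposited whole counts per gene, without normalization, over merged exons. Shared reads were to be split between overlapping genes, and strand use is not given in the sources used here. The authors also deposited cRPKM, an RPKM from edgeR pseudo-counts, for 11773 genes. Gene symbols matched 13564 of the 14256 identifiers; exon lengths in bp are those deposited. Samples were grouped by their labels.

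Here edgeR 4.0.16 (R 4.3.3) was run on the counts: filterByExpr, TMM and a quasi-likelihood F test over 11163 genes, with the standard error as log2 fold change over the square root of F. Alternatives used DESeq2 1.42.0, limma 3.58.1, other scalings, filters and thresholds, replicate blocks, length and depth trends removed (loess span 0.3), and each library left out. The fits were tested on simulated data. The members and lists were chosen with earlier results of these data known. Beyond the 10 genes and *E(Pc)*, the rule named the called genes of each list, up to 4 a role by the size of the log2 fold change, and genes with 3 counts or fewer; uncalled genes, markers past 4 a list and overlapping genes were named after their values were seen. *Psn*, *AP-2alpha*, *E(spl)m5-HLH* and *Brd* matched no identifier and were not analysed here. No sequences were used here. That the replicates came from separate testes is stated, so p-values rest on the spread between 2 pairs of testes within each genotype. The edgeR fit takes part of its estimate of that spread from the other genes tested.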

Additional observations from a re-analysis of the deposited data

How the results depend on the processing

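Among the 10 genes, *H* and *mib1* were called higher and *Ser* lower in all 15 fits, and 2 and 2 genes were called with the same-number replicate block as without it. Genes called lower numbered 1 with DESeq2, with library size alone and at an adjusted p under 0.01, and 1 gene was called in each direction at 2-fold or more. With each library left out, 2 to 6 were called higher and 1 to 2 lower. Values reversed sign in genes that were not called: *N* (-0.10), *kuz* (-0.039) and *Su(H)* (-0.038) with the gene length trend removed, and *fng* with the depth trend removed (-0.017) or with single libraries left out (-0.044 to 0.31). The cause was not tested.

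Over all genes, 2517 were called higher and 1272 lower. The counts were 1453 and 724 with DESeq2, 1478 and 338 at an adjusted p under 0.01, 981 and 315 at 2-fold or more, and 1219 to 3288 and 447 to 2652 with each library left out; 2415 were called lower with the depth trend removed. Of the other pathway genes, 5 were called higher with DESeq2, 6 at an adjusted p under 0.01, 4 at 2-fold or more and 4 to 11 with each library left out, and 3 lower with the depth trend removed. Fits with a library left out assume that the lone library of a genotype varies like the other genotype.

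Replicate numbers are not stated to pair libraries, and same-numbered deviations had a correlation of -0.25 across genes. The same-number replicate block gave 2107 genes higher and 888 lower. A crossed replicate block, which pairs unlike replicate numbers across genotypes, gave 3190 higher and 3014 lower. It put the shallower library of each genotype in the same block, and likewise the deeper ones. In it 4 of the 10 genes and 11 other pathway genes were higher and 2 of the latter lower. With log2(cRPKM + 0.1) the difference for *H* was 1.28 instead of 1.21. Of the 10 genes *fng* had the fewest counts, and 9 of the listed target genes held 3 counts or fewer in every library.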
